A study of Mus musculus with 6 samples.

Results

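Keratins are the intermediate filament proteins of epithelial cells, and the signals of all keratin genes on a mouse expression array were compared between GFP+ and GFP- cells of the neonatal prostate. A probe was included when the array design named it Krt followed by a number alone, which gave 60 probes of 47 genes among the 55681 probes and 36163 gene names of the array. By the numbering of the family, 26 of these genes encode type I and 21 type II keratins. They were sorted, from general knowledge, into 4 basal, 5 luminal, 15 suprabasal and 21 hair keratins, and Krt42 and Krt222 were left without a class. The luminal class holds the simple epithelial keratins Krt7, Krt8, Krt18, Krt19 and Krt20, and the usual luminal pair among them is Krt8 with Krt18.

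The cells came from the prostate of 6-day-old male FVB/N transgenic mice, named Tg 11.5kb-GFP, which received no treatment. In these mice GFP is made under the s-SHIP promoter, which is also active in a subset of vascular smooth muscle cells, and GFP+ and GFP- cells carry the same transgene. Cells negative for the lineage markers Ter119, CD31 and CD45 and positive for Sca-1 and CD49f (LSC cells) were sorted into LSC GFP+ and LSC GFP- cells, with 3 independent samples of each. The paper reports little or no Sca-1 and CD49f on the GFP+ smooth muscle cells. It also reports that all LSC cells carried the epithelial marker CD24. The labels do not say how many animals were pooled in a sample. Since each sample is a bulk population, fewer cells of a type and less RNA per cell cannot be told apart. All 6 arrays lay on 1 slide, between 36657 and 42127 probes per array were well above background, and between 42 and 48 of them were keratin probes.

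A keratin filament is built from pairs of 1 type I and 1 type II protein. In a stratified or glandular epithelium the pairs follow the layer of the cell: Krt5 with Krt14 in basal cells, Krt8 with Krt18 in luminal and other simple epithelial cells, and Krt1 with Krt10 or Krt4 with Krt13 in cells that leave the basal layer. The basal and luminal pairs are the usual markers of the prostate epithelial layers. The hair keratins build the hair shaft and its root sheath and are not known as prostate genes. Desmosomes and hemidesmosomes anchor the filaments to neighbouring cells and to the basement membrane.

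Each signal below is a probe of 60 bases, and those of the 4 basal keratins, of Krt13, whose 2 probes both passed the test, and of Krt80, the keratin that was lower, are shown first, as the array design gives them, in lower case because no part is marked. The Krt14 probe crosses a splice junction, so that its mm9 span of chr11:100064683-100065288 on the minus strand is longer than the probe itself. The Krt5 probe shown, at chr15:101542056-101542115, is the dimmer of the 2 Krt5 probes. The Krt13 probes lie at chr11:99982471-99982530 and chr11:99980412-99980471, the Krt15 probe at chr11:99993331-99993390, the Krt17 probe at chr11:100117535-100117594 and the Krt80 probe at chr15:101180014-101180073, all on the minus strand.
Krt14: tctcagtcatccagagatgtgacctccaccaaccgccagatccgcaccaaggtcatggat
Krt17: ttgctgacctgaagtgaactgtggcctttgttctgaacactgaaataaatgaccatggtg
Krt5: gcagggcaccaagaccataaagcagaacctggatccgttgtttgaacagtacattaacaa
Krt15: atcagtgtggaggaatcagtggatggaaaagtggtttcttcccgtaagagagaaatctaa
Krt13, brighter probe: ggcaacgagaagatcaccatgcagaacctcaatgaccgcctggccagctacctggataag
Krt13, dimmer probe: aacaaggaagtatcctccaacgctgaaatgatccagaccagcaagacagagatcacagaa
Krt80: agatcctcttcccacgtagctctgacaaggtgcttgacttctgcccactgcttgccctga

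All 4 basal keratins were higher in LSC GFP+ cells, none of the 5 luminal keratins passed the test in either direction, and the type II keratin Krt80 was lower. A gene was tested if the scanner software marked one of its probes as well above background on each of the 3 arrays of a population. This held for 35 of the 47 genes, and 32 were above background on all 6 arrays. At an unadjusted p under 0.05 by limma's moderated test, 7 keratin genes were higher in LSC GFP+ cells (Krt5, Krt13, Krt14, Krt15, Krt17, Krt23 and Krt34), 1 was lower (Krt80) and 27 passed in neither direction. These 8 genes are 22.9% of the keratins tested, against 7.67% of the 25548 gene names tested at their brightest probe (3.39% higher and 4.29% lower). Krt34 was tested only through the GFP+ arrays, where it is high, and among the 32 keratins above background on all 6 arrays 6 were higher and 1 lower, against 1737 of 23748 gene names in either direction. After Benjamini-Hochberg adjustment over all probes no keratin passed, and neither did any other gene name at its brightest probe. The 3 values of a population did not overlap those of the other for 8 keratin genes that were higher and 1 that was lower, and for 11.9% of all gene names in either direction (6.51% higher and 5.37% lower). The median log2 difference was -0.02 over the keratins and -0.01 over all gene names. Of the 19 type I genes tested 6 were higher and none lower, and of the 16 type II genes 1 was higher and 1 lower, a contrast that was not tested.

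**Figure D1:**
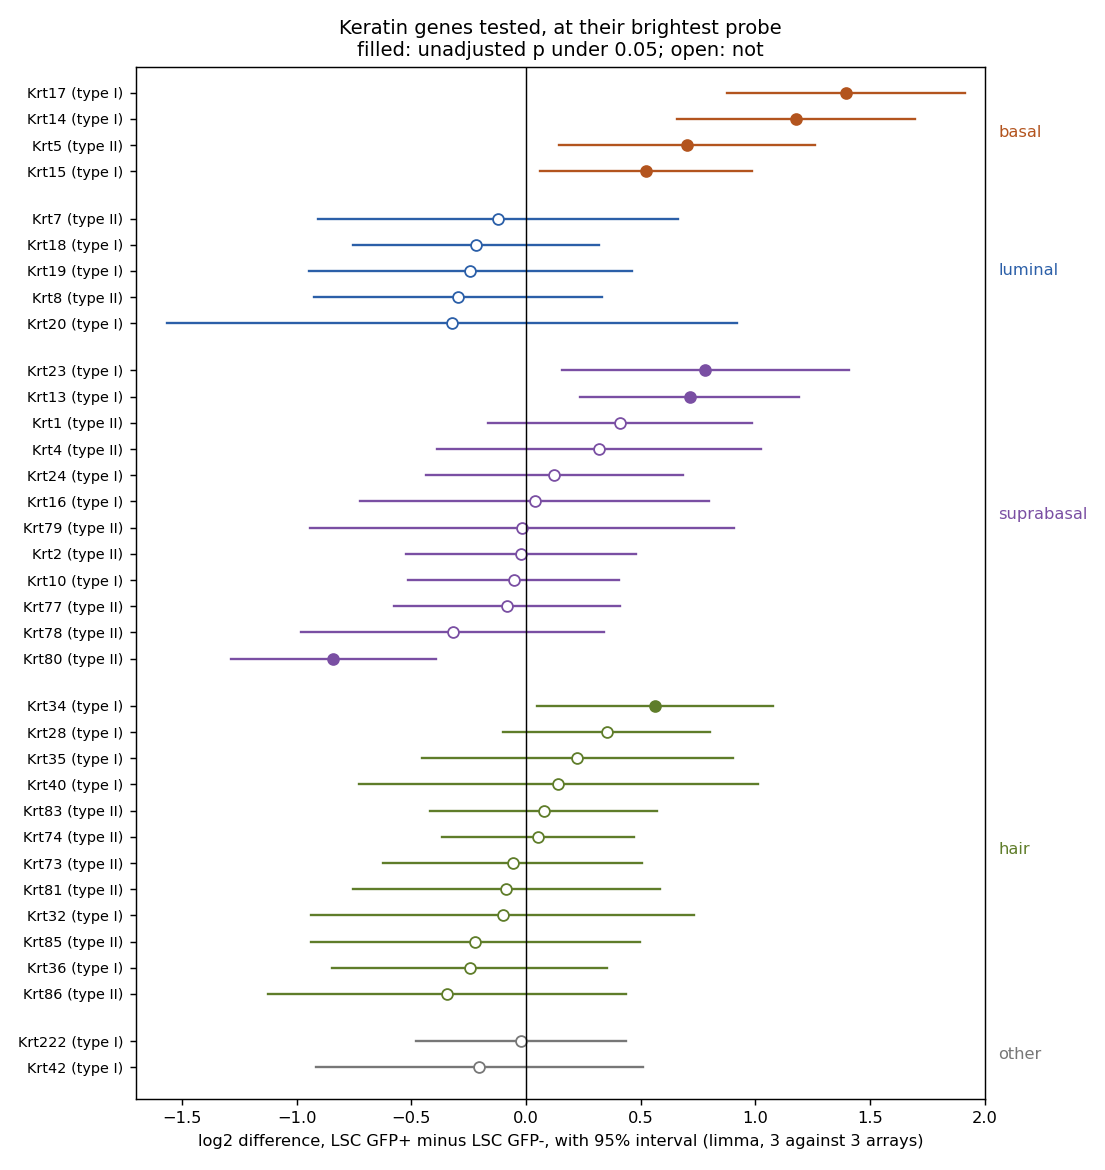
Log2 difference between LSC GFP+ and LSC GFP- cells (x axis) for each of the 35 keratin genes tested, at its brightest probe and grouped by class, with the 95% interval of limma over 3 against 3 arrays; filled points have an unadjusted p under 0.05. The 4 basal keratins lie between 0.52 and 1.40, and the 5 luminal keratins between -0.32 and -0.12 with intervals that all include 0.

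Signals are given below as log2 values relative to the 75th percentile of the array, so that 0 is the 75th percentile and a step of 1 is a doubling. Krt14, the type I partner of Krt5 in basal cells, had 4.84, 5.16 and 5.30 in LSC GFP+ replicates 1 to 3 and 3.91, 3.68 and 4.18 in LSC GFP- replicates 1 to 3. The lowest GFP+ array was above the highest GFP- array. Its difference was 1.18 (SE 0.22, adjusted p = 0.135 by limma), which is 2.26-fold.

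Krt17, a type I keratin of basal cells and of growing or injured epithelia, showed the largest difference of the 35 keratins. Its signals were 0.13, 0.03 and 0.29 in LSC GFP+ cells and -1.29, -1.54 and -0.91 in LSC GFP- cells. All GFP+ arrays lay above the 75th percentile and all GFP- arrays below it. The difference was 1.40 (SE 0.22, adjusted p = 0.102 by limma), or 2.63-fold.

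Krt5, the type II partner of Krt14 and the defining basal keratin of the prostate, was measured by 2 probes. At the brighter probe, at chr15:101537514-101537573 (mm9, minus strand), the signals were 4.57, 5.08 and 5.20 in LSC GFP+ cells and 4.26, 4.01 and 4.47 in LSC GFP- cells. The populations did not overlap, but GFP+ replicate 1 was only slightly above GFP- replicate 3. The difference was 0.70 (SE 0.24, adjusted p = 0.452 by limma), or 1.63-fold. The other probe, whose sequence is shown above, gave 0.999, 1.33 and 1.78 in LSC GFP+ cells and 0.50, 0.19 and 0.88 in LSC GFP- cells, and its difference was 0.85 (SE 0.28, adjusted p = 0.411 by limma). Both probes thus had the same direction and did not overlap.

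Krt15, a type I keratin of basal and stem cell layers, had the smallest difference of the basal keratins. Its signals were 5.19, 5.35 and 5.56 in LSC GFP+ cells and 4.80, 4.72 and 5.01 in LSC GFP- cells, again without overlap. The difference was 0.52 (SE 0.20, adjusted p = 0.530 by limma), or 1.44-fold. The median over the 4 basal keratins was 0.94. Krt14 and Krt17 passed the unadjusted threshold whichever single array was left out. Krt5 lost its call without GFP+ replicate 2 (difference 0.64), GFP- replicate 2 (0.58) or GFP+ replicate 3 (0.58), and Krt15 without GFP- replicate 1 (0.50), GFP+ replicate 2 (0.53), GFP- replicate 2 (0.46) or GFP+ replicate 3 (0.43).

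**Figure D2:**
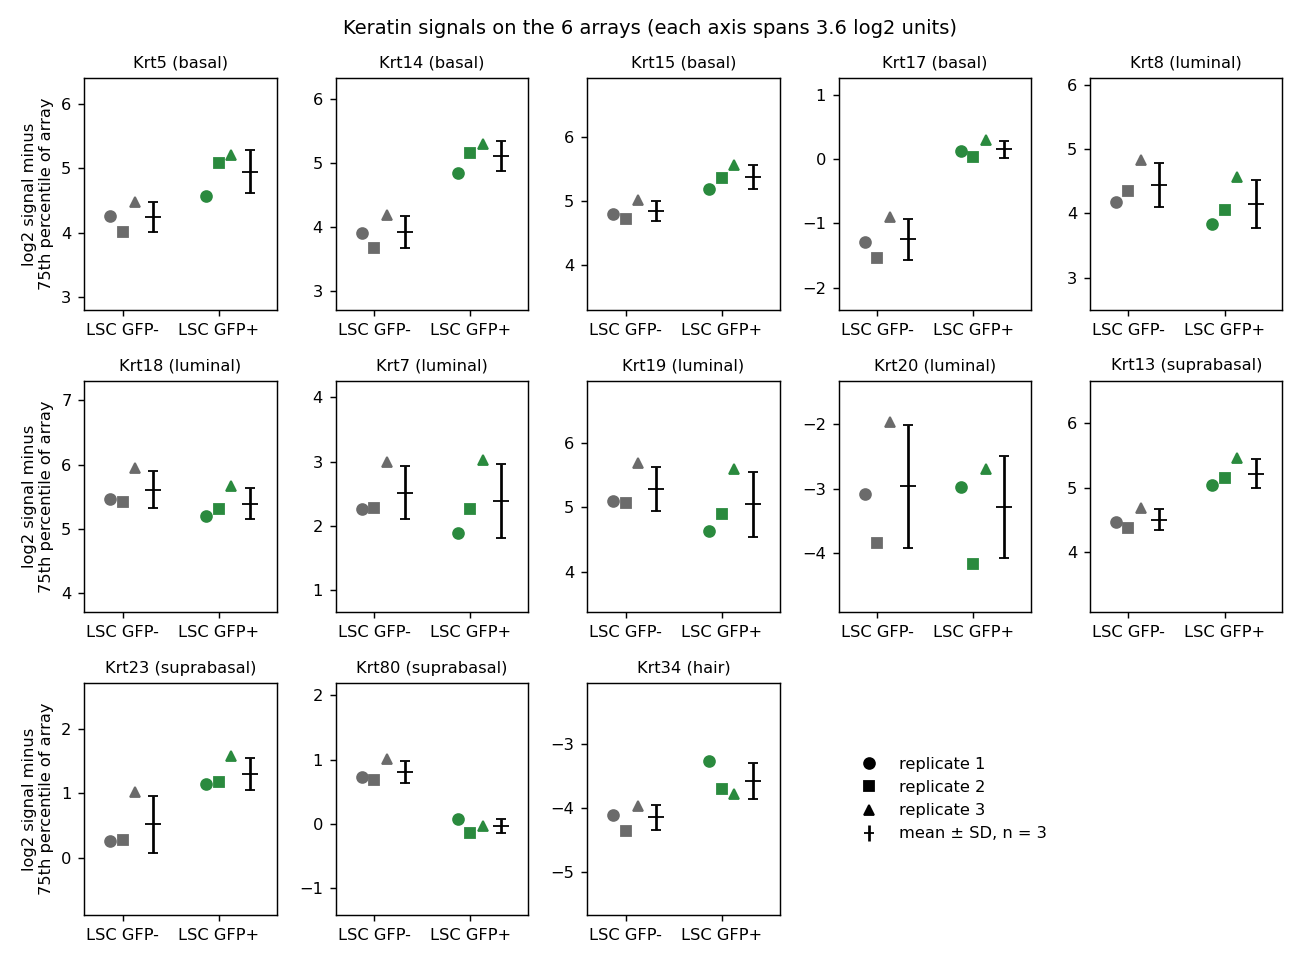
Log2 signal relative to the 75th percentile of the array (y axis) on each of the 6 arrays for 13 keratins, with the mean ± SD of 3 arrays beside the points. The populations do not overlap for Krt5, Krt14, Krt15, Krt17, Krt13, Krt23, Krt80 and Krt34, while those of the luminal keratins overlap. The basal and luminal keratins, Krt13 and Krt23 are all highest in replicate 3 of both populations.

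Krt7, Krt8, Krt18 and Krt19 were well above background on all 6 arrays, and all 5 luminal differences were below 0 without passing the test. Krt8, the type II keratin of simple epithelia, had 3.83, 4.06 and 4.56 in LSC GFP+ cells and 4.17, 4.34 and 4.83 in LSC GFP- cells at its brighter probe. Krt18, its type I partner, had 5.21, 5.31 and 5.66 in LSC GFP+ cells and 5.46, 5.42 and 5.95 in LSC GFP- cells. In both genes the third replicate was the highest of each population, as it was for the basal keratins. The differences were -0.30 for Krt8 (95% interval -0.92 to 0.33) and -0.22 for Krt18 (-0.76 to 0.32). The other Krt8 probe gave -0.15.

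Krt19, a type I keratin of simple and glandular epithelia, differed by -0.24 (95% interval -0.95 to 0.46). Its signals were 4.64, 4.90 and 5.60 in LSC GFP+ cells and 5.10, 5.08 and 5.69 in LSC GFP- cells, which overlap. In Krt8, Krt18 and Krt19 the GFP+ array was the lower within each of the 3 replicate numbers. Blocking on replicate number gave an SE of 0.13 for Krt8, 0.13 for Krt18 and 0.15 for Krt19, in place of 0.27, 0.23 and 0.30, and none of the 3 passed. Krt7, the type II keratin of ductal epithelia, differed by -0.12 (-0.91 to 0.66), and its values ranged from 1.90 to 3.03 in LSC GFP+ and from 2.27 to 3.00 in LSC GFP- cells. Krt20, known from urothelium and intestine, was dim, above background on 2 of 3 GFP+ arrays and on all 3 GFP- arrays, and differed by -0.32 (-1.56 to 0.92). With single arrays left out Krt7 ranged from -0.44 to 0.13 and Krt20 from -0.76 to 0.18, so that their direction turned. The median over the 5 luminal keratins was -0.24, and with single arrays left out it lay between -0.50 (without GFP+ replicate 3) and -0.04 (without GFP- replicate 3).

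Differences between 2 probes of the same array do not depend on how arrays are scaled, and they were taken for 9 pairs of keratins. Krt14 minus Krt18 was -0.37, -0.15 and -0.36 in LSC GFP+ cells and -1.55, -1.75 and -1.76 in LSC GFP- cells, a shift of 1.40. Krt5 minus Krt8 was 0.74, 1.02 and 0.63 in LSC GFP+ cells and 0.09, -0.34 and -0.35 in LSC GFP- cells, a shift of 1.0. In both pairs the basal keratin was higher relative to the luminal one in every GFP+ array than in any GFP- array. For each of these pairs the exact two-sided permutation test gave p = 0.1, the smallest that 3 against 3 arrays allow, and 0.225 after adjustment over the 9 pairs. Within the luminal pair, Krt18 minus Krt8 shifted by 0.08 (exact permutation p = 0.6).

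Among the basal keratins, the differences of Krt14 and Krt17 were larger than that of Krt5 on the same arrays. Krt14 minus Krt5 was 0.27, 0.08 and 0.10 in LSC GFP+ cells and -0.34, -0.33 and -0.29 in LSC GFP- cells, a shift of 0.47. Krt17 minus Krt5 shifted by 0.69. Both shifts were seen on all arrays without overlap and had an exact permutation p = 0.1, again the smallest possible, while Krt15 minus Krt5 shifted by -0.18 (exact permutation p = 0.3). With a smallest possible p of 0.1, the test cannot decide whether the probes changed unequally, and a shift does not tell which of them changed. The shifts also depend on the probe: the dimmer Krt5 probe differed by 0.85, the one used here by 0.70.

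**Figure D3:**
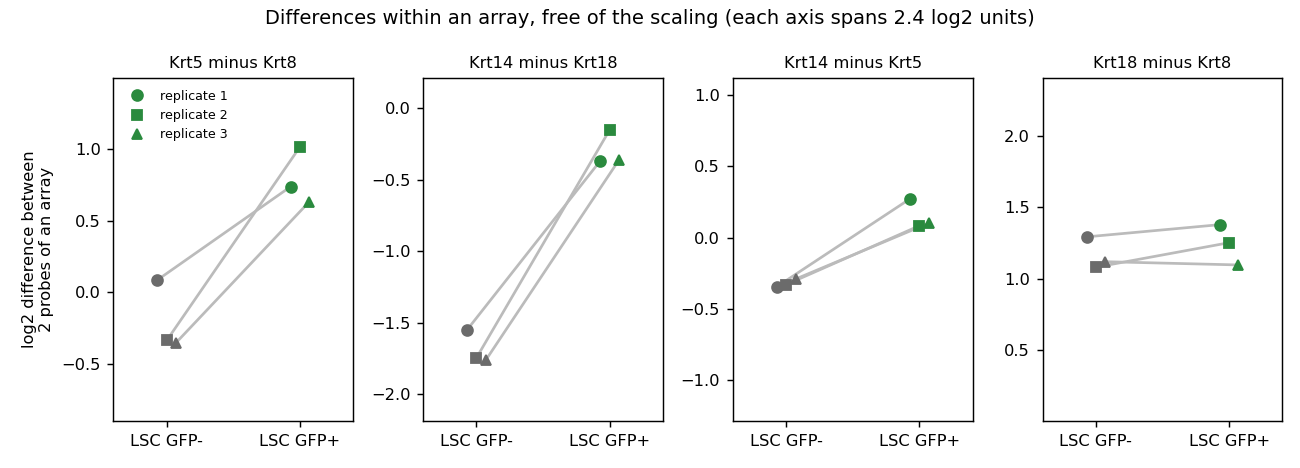
Log2 difference between the brightest probes of 2 keratins on the same array (y axis) in LSC GFP- and LSC GFP+ cells, with a line joining samples of the same replicate number. Krt5 minus Krt8 shifts by 1.0 and Krt14 minus Krt18 by 1.40, and Krt18 minus Krt8 by 0.08.

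Of the 15 suprabasal keratins, which fill the cells of stratified or specialised epithelia above the basal layer, 12 were tested, 2 were higher in LSC GFP+ cells and 1 was lower. Krt13, the type I keratin of internal stratified epithelia, had 5.04, 5.15 and 5.47 in LSC GFP+ cells and 4.47, 4.37 and 4.68 in LSC GFP- cells. The populations did not overlap, and the difference was 0.71 (SE 0.21, adjusted p = 0.333 by limma), or 1.64-fold. Its dimmer probe differed by 0.57 (adjusted p = 0.478 by limma) and passed too. Binding of the 2 Krt13 probes to other keratin transcripts was not tested. Krt4, the type II partner of Krt13, differed by 0.32 (95% interval -0.39 to 1.03) and its populations overlapped. Within arrays, Krt13 minus Krt4 shifted by 0.39 (exact permutation p = 0.3). Whether this pair changed unequally cannot be decided, because 0.1 is the smallest p that 3 against 3 arrays allow.

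Krt23, another type I keratin, had 1.14, 1.18 and 1.58 in LSC GFP+ cells and 0.25, 0.28 and 1.02 in LSC GFP- cells. The difference was 0.78 (SE 0.27, adjusted p = 0.455 by limma), or 1.72-fold, and the GFP- replicate 3 array came close to the GFP+ arrays. It lost its call without GFP- replicate 1 (0.65), GFP- replicate 2 (0.66) or GFP+ replicate 3 (0.64), and with the methods' t-test. Krt80, a type II keratin of differentiating epithelial cells, went the other way, with 0.07, -0.14 and -0.04 in LSC GFP+ cells and 0.73, 0.68 and 1.01 in LSC GFP- cells. The difference was -0.84 (SE 0.19, adjusted p = 0.201 by limma), which is 1.79-fold in favour of LSC GFP- cells, and the populations were well apart. Krt13 and Krt80 kept their calls whichever single array was left out.

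The epidermal pair did not pass: Krt1 differed by 0.41 (95% interval -0.16 to 0.98) and Krt10 by -0.05 (-0.51 to 0.41). With replicate numbers entered as a blocking term Krt1 passed, and 14.2% of all gene names then passed in place of 7.67%. The other suprabasal keratins tested lay between -0.32 (Krt78) and 0.12 (Krt24). Krt78 is read by 2 probes that share 50 bases yet differed by -0.32 and 0.17, neither past the threshold. Krt12 and Krt76 were not above background on any array, and Krt9, of the skin of palms and soles, was above it on 4 arrays and was not tested.

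Several hair keratins gave signal in these prostate cells. The 1 that passed the test is 8.33% of the 12 tested, near the 7.67% of all gene names. Of 21 genes 12 were tested and 10 were above background on all 6 arrays (Krt28, Krt32, Krt36, Krt40, Krt73, Krt74, Krt81, Krt83, Krt85 and Krt86). Krt28, Krt36 and Krt40 each have another probe that was above background on no array. Krt25, Krt71, Krt75 and Krt84 were above background on none. Krt26, Krt27, Krt39 and Krt82 were above background on 2 arrays and Krt31 on 4, and were not tested. The median difference of those tested was -0.0031, with 6 genes above 0 and 6 below. The gene that passed was Krt34, a hair shaft keratin, with -3.26, -3.70 and -3.78 in LSC GFP+ cells and -4.11, -4.35 and -3.97 in LSC GFP- cells. It was above background on all 3 GFP+ arrays but only 1 GFP- array, so it entered the test through the GFP+ arrays alone. Its difference of 0.56 (adjusted p = 0.562 by limma) came to 0.04 with normexp background correction, and its call was lost without GFP+ replicate 1 (0.41), GFP- replicate 1 (0.58), GFP+ replicate 2 (0.62) or GFP- replicate 2 (0.46), with no filter on dim probes, and with an intensity trend in limma. Krt28, of the inner root sheath, had no overlap but did not pass (0.35, 95% interval -0.10 to 0.80).

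Probes of the type II hair keratins Krt81 and Krt83 have closely similar sequences, which are shown here because they bear on which gene each signal belongs to. Of 55 bases compared, the Krt83 probe differs from the Krt81 probe at 4. Capitals mark the bases that differ from Krt81.
Krt81: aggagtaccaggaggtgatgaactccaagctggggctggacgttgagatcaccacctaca
Krt83: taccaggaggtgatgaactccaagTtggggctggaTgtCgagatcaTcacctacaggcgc
The differences at these probes were -0.08 for Krt81 and 0.08 for Krt83. The 3 probes of Krt85, another type II hair keratin, gave -0.22, -0.39 and 0.16, none past the threshold. The first of them has no position in the array design and resembles the Krt81 probe, and the last lies beside the Krt83 probe, away from the other. Binding to other keratin transcripts was not tested for these or any other keratin probes, which were compared only with each other. The signals of the Krt81, Krt83 and Krt85 probes are therefore uncertain for the single gene. The accession printed for Krt83 is named Krt87 in the RefSeq table.

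Krt222, a keratin-like gene, was read by 2 probes that differ in detection. The first had between 7.64 and 8.02 on the 6 arrays and differed by -0.02, and the other probe was above background on 1 array only. The first probe holds a run of at least 12 bases of the CA repeat, as do 0.111% of all probes, and all 62 of these probes were above background on all 6 arrays, against 60.8% of all probes. Whether the repeat sets that signal was not tested. Krt42, which has no class here, differed by -0.20, and binding of its probe to other keratin transcripts was not tested.

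The keratin genes lie in 2 clusters, and 4 of the 7 genes that were higher in LSC GFP+ cells lie close together. By probe positions in mm9, 25 type I genes span 1033.7 kb of chromosome 11, and the 21 type II genes together with Krt18, a type I gene, span 682.4 kb of chromosome 15. Within the type I cluster, 7 keratin genes lie in the 137.2 kb from Krt13 to Krt17 (chr11:99980412-100117594), in the order Krt13, Krt15, Krt19, Krt9, Krt14, Krt16 and Krt17. Of these, 6 were tested and 4 were higher, while Krt19 (-0.24) and Krt16 (0.04), which stand between them, did not pass. The stretch was set to begin and end at genes that were higher, so this count only describes it and was not tested. Krt8 and Krt18 are neighbours at the end of the type II cluster and differed by -0.30 and -0.22. Krt80, the only keratin that was lower, is the outermost type II gene at the other end.

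**Figure D4:**
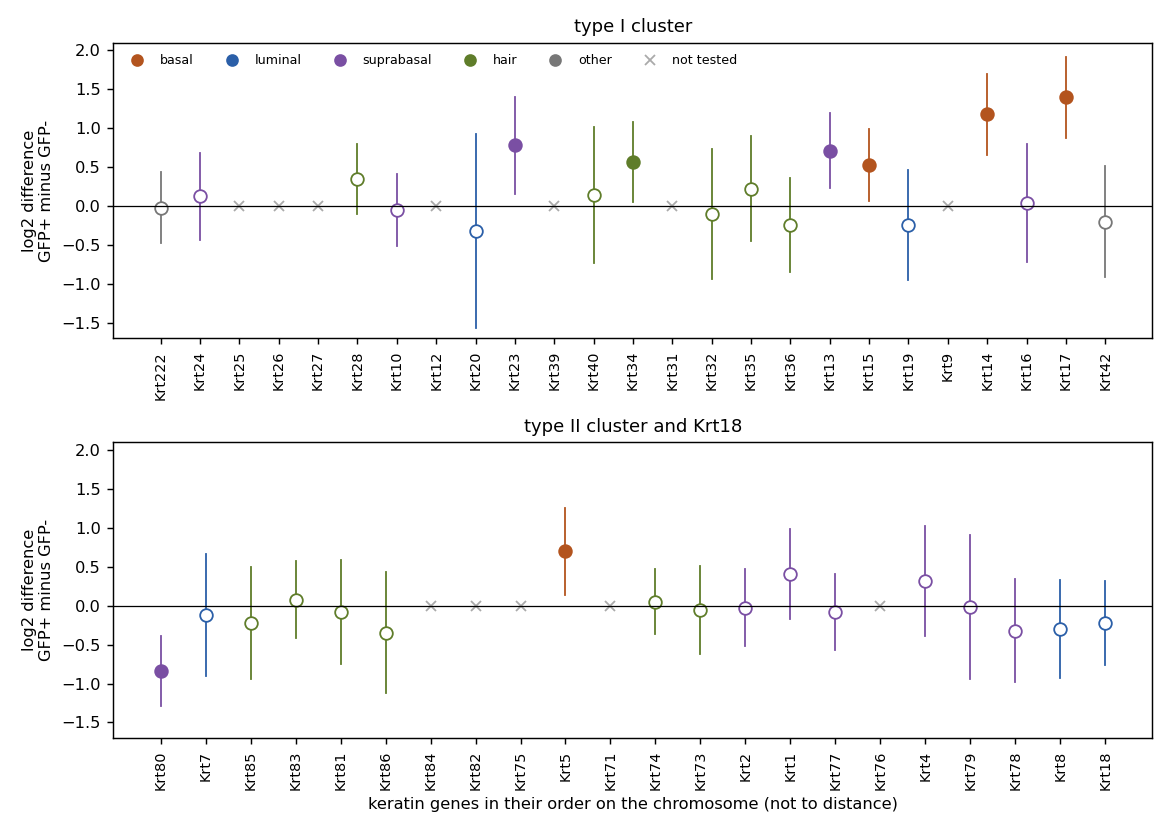
Log2 difference between LSC GFP+ and LSC GFP- cells (y axis, with the 95% interval) for keratin genes in their order on chromosomes 11 (upper panel) and 15 (lower panel); filled points have an unadjusted p under 0.05, and crosses at 0 mark genes not tested. Krt85 is drawn beside Krt83, where the nearer of its 2 mapped probes lies. Krt13, Krt15, Krt14 and Krt17, at 0.71, 0.52, 1.18 and 1.40, lie within 7 neighbouring genes.

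Promoters of the RefSeq table for GRCm38.p6, each of 250 bases before and 50 after a start, were available for 33 of the 47 genes as 34 sequences, and were searched on both strands for the TATA box TATAAA, for TGANTCA (the AP-1 motif) and for GGGCGG (the GC box). TATAAA was found in 17 of the 34 keratin promoters against 13.6% of all 32851 promoters of the table. A match at any position counted, whether or not a TATA box would lie there. Relative to the start, it began at 19 in Krt42 and at -206 in Krt84. TGANTCA was found in 2 (5.9%, against 7.8% of all), both of Krt13, and GGGCGG in 2 (5.9%, against 35.7%), of Krt7 and Krt75. Promoters of 4 genes are shown so that these letters can be read, as the 250 bases before the start, with the matches of the motifs in capitals: Krt5 and Krt13, which were higher in LSC GFP+ cells, Krt34 with a TATAAA match, and the luminal Krt7 with 4 GC box matches. Krt5 lies at chr15:101712906-101713155, the Krt13 start with 2 TGANTCA matches at chr11:100120578-100120827 and Krt34 at chr11:100041555-100041804 on the minus strand. Krt7 lies at chr15:101412153-101412402 on the plus strand. Krt13 has another start, with 1 TGANTCA match in the 250 bases before it (chr11:100121567-100121816), which is not shown. The probes are placed in mm9 and the starts in GRCm38.p6, and their positions were not compared. Which Krt13 start gives the transcripts that the probes read was not tested, so the one shown may not be their promoter.
Krt5: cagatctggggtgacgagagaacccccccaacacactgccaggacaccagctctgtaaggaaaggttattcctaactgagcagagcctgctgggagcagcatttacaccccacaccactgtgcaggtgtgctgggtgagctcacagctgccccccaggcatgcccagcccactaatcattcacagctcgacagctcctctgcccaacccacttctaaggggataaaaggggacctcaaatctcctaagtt
Krt13: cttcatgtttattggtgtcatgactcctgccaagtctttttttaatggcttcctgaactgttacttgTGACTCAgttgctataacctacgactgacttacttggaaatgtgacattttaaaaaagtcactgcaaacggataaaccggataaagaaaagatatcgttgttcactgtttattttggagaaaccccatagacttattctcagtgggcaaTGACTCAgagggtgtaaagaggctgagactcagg
Krt34: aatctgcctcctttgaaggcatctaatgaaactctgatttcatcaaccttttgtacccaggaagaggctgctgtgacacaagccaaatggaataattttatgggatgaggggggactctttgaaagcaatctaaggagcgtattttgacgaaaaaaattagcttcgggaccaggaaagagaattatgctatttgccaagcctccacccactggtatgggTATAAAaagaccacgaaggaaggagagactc
Krt7: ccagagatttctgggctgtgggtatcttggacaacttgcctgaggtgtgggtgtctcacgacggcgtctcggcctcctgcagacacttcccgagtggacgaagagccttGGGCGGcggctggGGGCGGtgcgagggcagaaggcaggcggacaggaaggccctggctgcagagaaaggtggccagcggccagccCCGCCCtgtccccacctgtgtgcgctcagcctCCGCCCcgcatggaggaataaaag
Among the keratins with a promoter here, TATAAA was found in Krt8 (on both strands, at overlapping letters), Krt10, Krt12, Krt20, Krt42, Krt76 and several hair keratins. Of the higher genes with a promoter here (Krt5, Krt13, Krt14, Krt23 and Krt34), it was found in Krt34 alone. No promoter of Krt15, Krt17 or Krt80 was available to search. A match is a description of the letters and not a site.

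Among the genes that anchor keratin filaments, most did not pass. Of 13 listed partners, all tested, 1 was higher and 1 lower. Beside the counts of this list and of those below, 3.39% of all gene names were higher and 4.29% lower at the same threshold. Pkp1, the plakophilin of stratified epithelia, had 2.23, 2.51 and 2.07 in LSC GFP+ cells and 0.72, 0.53 and 0.63 in LSC GFP- cells, a difference of 1.65 (adjusted p = 0.0700 by limma). Pkp2, the plakophilin of simple epithelia and heart, was lower, by -0.71. Desmoplakin (Dsp, 0.23), plakoglobin (Jup, 0.09) and plectin (Plec, -0.08) did not pass.

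Of 10 tested basal genes that are no keratins, 5 were higher and all 10 had differences above 0, as had 48.98% of all gene names. Those with the smallest p were Dsc3, a desmosomal cadherin (2.05), Col17a1, a hemidesmosome collagen (1.09), Igfbp3 (1.23) and Lamb3, a chain of laminin-332 (0.88). Trp63, the transcription factor of basal cells, was read by 3 tested probes that disagree. The brightest was between 6.54 and 6.84 on all 6 arrays and differed by 0.11 without passing, another passed at 0.62 (adjusted p = 0.374 by limma) without overlap, and the third gave -0.73 and did not pass. Of 10 luminal genes that are no keratins, 2 were higher, among them Hoxb13, a homeobox transcription factor (0.80), and 3 were lower (Muc1, -0.62, Cldn3, -0.76, and Prom1, -0.53).

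Intermediate filament genes of other cells were compared as well: of 13 tested, 2 were lower and none higher. Des, the muscle filament desmin, differed by -1.68 and Nes by -0.81. Vim, the mesenchymal filament vimentin, had between 0.05 and 0.37 in LSC GFP+ cells and between -0.15 and 1.81 in LSC GFP- cells, and did not pass.

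Markers of other cell types differed between the populations too. All 5 smooth muscle genes tested, of 7 listed, were lower in LSC GFP+ cells (Acta2 by -2.13), and their summed level, on the log2 scale, was 2.61 to 3.30 in LSC GFP+ and 4.27 to 5.21 in LSC GFP- cells. Lmod1 was above background on no array. Of 9 stromal genes tested, of 10 listed, 6 were lower (Sparcl1 by -2.72 and Col1a1 by -2.18) and 2 were higher (Dcn by 1.19 and Fbln1 by 0.90), with a summed level of 4.60 to 4.96 and 4.75 to 6.11. None of the 3 endothelial, 6 immune, 4 urothelial and 6 cornified epidermis and hair follicle genes tested passed, and of the last list Flg, Flg2, Dsg4, Hoxc13 and Sprr1b were above background on no array. Of the 6 endothelial genes listed 3 were not tested, and LSC GFP- replicate 3 stood apart in several: Cdh5 was at -2.24 there and between -6.51 and -6.02 on the other arrays, and Pecam1 at -1.07 against -3.61 to -2.86. Without that array the same 7 keratins were higher and the same 1 lower. The part of smooth muscle and stromal cells in the keratin differences was not tested.

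Keratin genes whose array name holds more than a number stood outside the rule. Krt6a (0.31), Krt33b (0.22) and the pseudogene Krt72-ps (0.08) did not pass, and the 2 Krt6b probes gave 0.54 and -0.81, neither past the threshold. Of 65 probes for keratin-associated proteins of hair, 34 were tested and 1 was higher, where 3.38% of all probes were.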

How the data were processed

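RNA of 3 LSC GFP+ and 3 LSC GFP- samples was amplified (Ovation Pico WTA), labelled with Cy3 and hybridised to SurePrint G3 Mouse arrays, all on 1 slide. Per the file headers, the deposited intensity values (processed signal, linear scale) were background-subtracted and detrended by Feature Extraction 11.0.1.1, without normalization between arrays; the submitters' processing notes name version 10.7.3.1. The deposited series table holds the same signals, rounded (all 62976 spots within 0.51%).

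After a log2 transformation, each array's 75th percentile was subtracted, spots marked as outliers were left out and spots of a probe averaged. No keratin spot was an outlier or saturated. The 37008 probes that the software marked well above background on every array of either population were tested with lmFit and eBayes (limma 3.58.1, R 4.3.3), two-sided, with Benjamini-Hochberg adjustment over all of them. A gene is given at its brightest probe. The methods name Student's t-test at an unadjusted threshold of 0.05, so calls use that threshold. Same-numbered samples deviated together across probes (r = 0.43, 0.28 and 0.67), and the replicate number was an alternative block. Of the pairs with unlike numbers, GFP+ replicate 1 with GFP- replicate 2 had r = 0.22. The others lay between -0.55 and -0.09. Other alternatives were normexp with an offset of 50, quantile and median scaling, the series table, 3 filters, an intensity trend, gene means over probes, outlier spots kept, the methods' t-test and each array left out. Tests were checked on simulated data. Nothing says that samples came from separate animals, so p-values measure the spread between these samples, and the number of arrays limits the precision.

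Named keratins are the basal and luminal ones, those past the threshold and the hair keratins above background on all arrays; of each other list at most 4 genes past the threshold are named by smallest p, and a few further genes were named after their values were seen. Of 60 keratin probes, 56 matched a RefSeq accession, 55 with the same symbol. Members, classes and lists were chosen with earlier results of these data known. Promoters are from RefSeq (GRCm38.p6) and probe positions from the array design (mm9). The values of 1 listed gene and the sequence of 1 probe are not reported here.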

Additional observations from a re-analysis of the deposited data

How the results depend on the processing

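The number of keratins that were higher was 6 to 8 and of those lower 1 under every alternative that kept all 6 arrays. With the replicate number as a block, 8 were higher and 1 lower, Krt1 being the one added. Krt34 lost its call under normexp, under the intensity trend and without a filter, where Krt84, not above background on any array, was called instead (named after its values were seen); Krt23 lost its call with the methods' t-test, where Krt28 was added. With single arrays left out, between 3 and 7 keratins were higher (4 without LSC GFP- replicate 1, 4 without LSC GFP+ replicate 2, 3 without LSC GFP- replicate 2 and 4 without LSC GFP+ replicate 3) and 1 to 2 lower, Krt86 being added without LSC GFP+ replicate 1. Of all 25548 gene names, between 1359 (without LSC GFP+ replicate 2) and 2697 (without LSC GFP+ replicate 1) passed in these fits, against 1960 with all arrays. Krt13, Krt14, Krt17 and Krt80 were called under every alternative run. The medians of the basal and luminal keratins kept their signs throughout, the luminal one between -0.50 and -0.04 with single arrays left out. Krt20 turned to 0.13 without LSC GFP+ replicate 2 and 0.18 without LSC GFP- replicate 3, and Krt7 to 0.13 without LSC GFP+ replicate 1 and 0.12 without LSC GFP- replicate 3; over all arrays left out singly Krt20 ranged from -0.76 to 0.18 and Krt7 from -0.44 to 0.13, and the cause was not tested. Dim probes, such as those of Krt20 and Krt34, sit near background, where signal limits what can be told apart.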
